A study of Mus musculus with 20 samples.

Results

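Monocyte and interstitial macrophage markers were read in alveolar macrophages that had been sorted from mouse lung. The 6 genes are Ccr2, Cx3cr1, Ly6c2, F13a1, Tmem176a and Tmem176b. They were chosen by name as genes used to mark these cells in lung, and all 6 were found among the 13225 genes of the deposited table. Mice of strain B6.Cg-Mir155tm1.1Rsky/J, knocked out for miR-155 (miR-155 KO), had breathed cigarette smoke or air for 4 weeks, as had the wild type (WT) C57BL/6 mice. The 4 groups, miR-155 KO smoke, miR-155 KO air, WT smoke and WT air, held 5 mice each, with 1 library per mouse. The sort kept CD45+ cells that carried both Siglec-F and CD11c, so monocytes and interstitial macrophages without Siglec-F fall outside the gate. The knockout strain lacks miR-155 in every cell of the mouse, and the labels name no littermate controls for it.

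Alveolar macrophages live in the air spaces, stem largely from fetal precursors and are marked by Siglec-F and CD11c. Classical monocytes of the mouse carry Ly6C and the chemokine receptor CCR2, leave the bone marrow along CCL2 and CCL7, and can become macrophages in injured lung. Interstitial macrophages lie in the lung tissue and carry CX3CR1, the receptor of the membrane-bound chemokine CX3CL1. F13a1 encodes the A subunit of coagulation factor XIII, a transglutaminase that cross-links fibrin. Tmem176a and Tmem176b encode related membrane-spanning proteins of myeloid cells.

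miR-155 is a microRNA of activated immune cells, and it is the molecule that the knockout mice lack. Its mature form in RefSeq (GRCm38.p6, chr16:84714143-84714165, plus strand) is printed below with the seed, bases 2 to 8, in capitals.
mmu-miR-155-5p: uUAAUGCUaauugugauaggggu
The complement of this seed, AGCATTA, was searched on the transcribed strand of the longest 3-prime untranslated stretch annotated for each gene (GENCODE release M21). It occurred in 9.14% of the 11282 genes of the table that have such a stretch. Of the 6 markers, F13a1 held 1 match and the other 5 held none. The F13a1 match is printed with its 10 neighbouring bases on each side, the match in capitals. This whole stretch lies on the minus strand at chr13:36867289-36867315 (GRCm38).
F13a1 match: gtcatctctcAGCATTAgcatctaatt
A match of letters is a description of the sequence, and binding of the microRNA was not measured.

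Tmem176a and Tmem176b lie side by side on chromosome 6 and are read in opposite directions. GENCODE places Tmem176a on the plus strand at chr6:48840919-48847071 and Tmem176b on the minus strand at chr6:48833818-48841496, so that the gene bodies share 578 bases. Merged exons of the pair share 81 bases, which is 2.13% of the Tmem176a exons and 3.42% of the Tmem176b exons. The 300-base RefSeq windows around a start of each gene are shown because 208 bases of them, in capitals, are the same stretch of chromosome read from either strand. The Tmem176a window is chr6:48841233-48841532 on the plus strand and the Tmem176b window is chr6:48841325-48841624 on the minus strand, both in GRCm38.p6.
Tmem176a: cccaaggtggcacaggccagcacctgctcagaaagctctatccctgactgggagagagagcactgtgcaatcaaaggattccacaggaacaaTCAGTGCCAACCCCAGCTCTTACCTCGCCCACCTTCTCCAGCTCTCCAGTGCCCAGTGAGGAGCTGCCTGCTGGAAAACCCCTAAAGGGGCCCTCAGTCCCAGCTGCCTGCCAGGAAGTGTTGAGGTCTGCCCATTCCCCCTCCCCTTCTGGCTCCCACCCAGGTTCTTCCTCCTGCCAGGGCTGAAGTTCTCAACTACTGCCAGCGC
Tmem176b: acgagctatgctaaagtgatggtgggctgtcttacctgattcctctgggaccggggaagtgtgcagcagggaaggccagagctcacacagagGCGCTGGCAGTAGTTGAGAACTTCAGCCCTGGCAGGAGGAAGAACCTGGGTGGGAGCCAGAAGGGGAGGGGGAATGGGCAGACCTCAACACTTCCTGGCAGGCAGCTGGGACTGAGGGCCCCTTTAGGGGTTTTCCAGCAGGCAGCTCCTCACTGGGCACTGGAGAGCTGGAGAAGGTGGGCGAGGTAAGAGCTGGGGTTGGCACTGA
Whether the counting used strand is not given in the sources used here, so reads of the shared exon bases cannot be assigned to either gene with certainty.

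**Figure D1:**
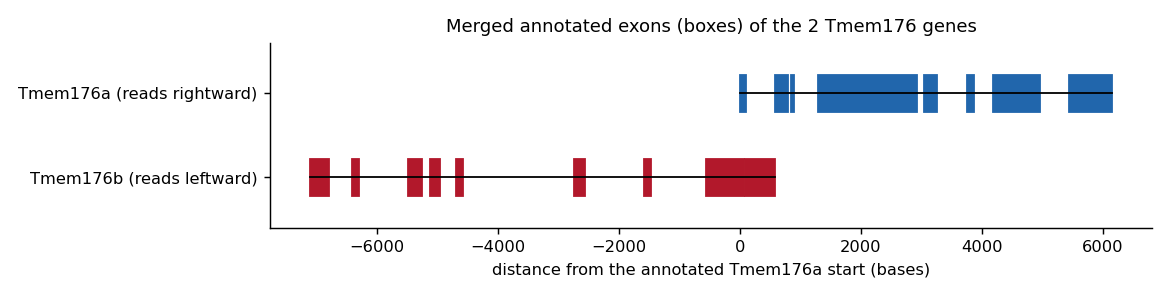
Merged annotated exons (boxes) and gene bodies (lines) of Tmem176a, read rightward, and Tmem176b, read leftward, by distance in bases from the annotated Tmem176a start. The gene bodies overlap over 578 bases at their starts.

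The libraries held 6885680 to 11952088 reads over the table. Genes without a read numbered 346 to 1224 in miR-155 KO smoke, 392 to 1645 in miR-155 KO air, 259 to 729 in WT smoke and 502 to 987 in WT air, with IIIb2, IIIb3 and IIIb4, all of miR-155 KO air, the highest of all. Summed over 8 defining alveolar macrophage genes, the level was 22982 to 26900 CPM (counts per 1e6 reads) in miR-155 KO smoke, 21075 to 26671 in miR-155 KO air, 21309 to 26337 in WT smoke and 22381 to 24115 in WT air. Most of that sum was Chil3, a chitinase-like secreted protein, which averaged 16869 to 18681 CPM over the groups and was not called. Siglecf, which encodes the sorted protein Siglec-F, fell with smoke by a log2 change of -1.15 ± 0.13 in miR-155 KO (SE, limma adjusted p = 1.41e-07) and of -1.25 ± 0.13 in WT (adjusted p = 2.25e-08). Ear2, a ribonuclease gene, fell too, with log2 changes of -1.35 in miR-155 KO and -1.33 in WT. Car4, which encodes carbonic anhydrase IV, rose by 1.09 in miR-155 KO and by 1.52 in WT. The part of these changes in the marker changes was not tested. Mir155hg, the host transcript of the deleted microRNA, had 8 reads in miR-155 KO smoke and 25 in miR-155 KO air, and 48 in WT smoke and 2 in WT air. What the allele removes of that transcript is not given in the sources used here, so the genotype labels were not checked by these reads.

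The 6 markers sat low in these sorted cells, as the plot of log2 CPM by mouse shows. Ccr2 had a read in all 20 libraries and 1410 reads in all, and 31.0% of the genes in the table had a lower mean. Cx3cr1 was read in 18 libraries with 128 reads over all of them, Tmem176b in 14 with 135, F13a1 in 9 with 63, Tmem176a in 8 with 59 and Ly6c2 in 6 with 40. Among these 5, Cx3cr1 had the highest mean log2 CPM (-0.79), followed by Tmem176b (-1.48), which lay above 9.19% of the table, and Ly6c2 had the lowest (-3.15), above 0.529%. Per kilobase of merged exon, Ccr2 averaged 0.600 to 1.51 CPM in the 4 groups, and no other of the 6 genes exceeded 0.666. In bulk RNA, fewer cells of a type and less RNA per cell cannot be told apart.

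**Figure D2:**
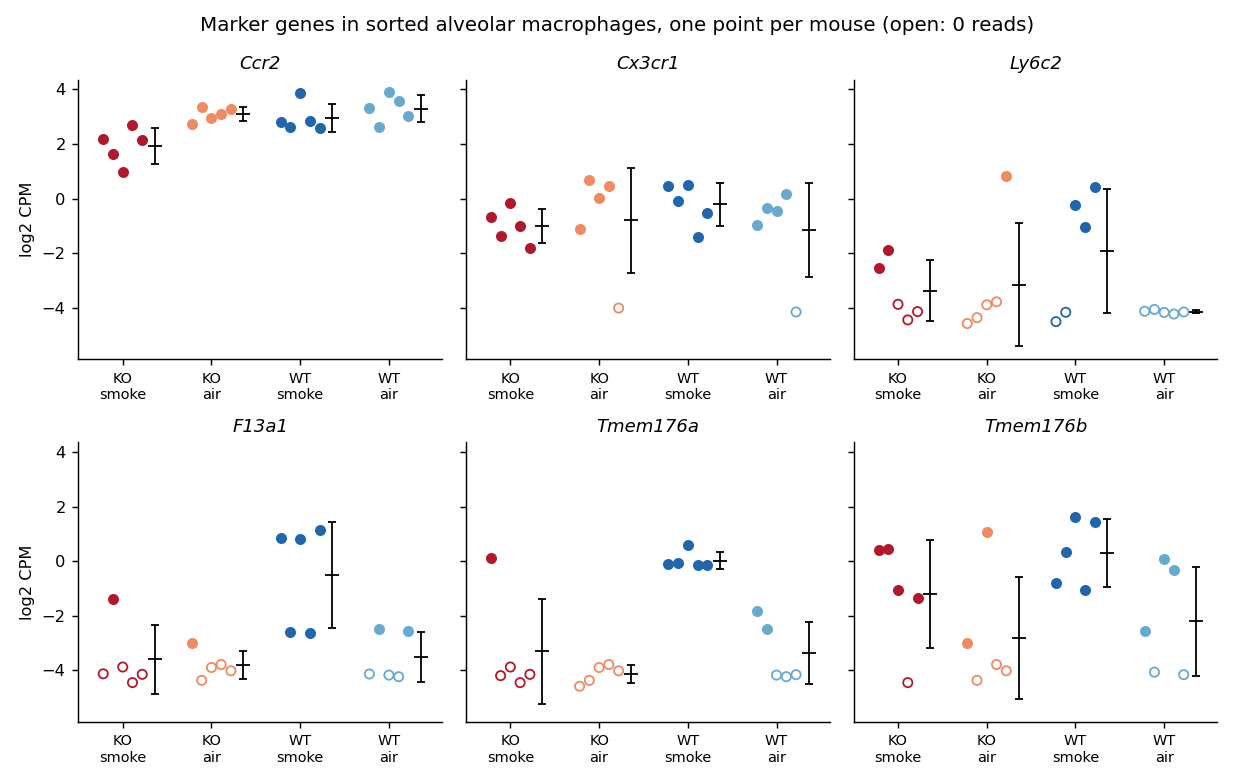
log2 CPM of the 6 genes, one point per mouse, in miR-155 KO smoke, miR-155 KO air, WT smoke and WT air. Open points are libraries with 0 reads and the black marks give the mean ± SD over 5 mice. Ccr2 is read in all 20 mice and lowest in miR-155 KO smoke, and Tmem176a is read in all 5 WT smoke mice.

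Ccr2, the receptor of CCL2 and CCL7, fell with smoke in miR-155 KO mice. It measured 4.48, 3.07, 1.91, 6.42 and 4.42 CPM in the miR-155 KO smoke mice IVa2, IVa4, IVa5, IVb2 and IVb4. The miR-155 KO air mice IIIa5, IIIb1, IIIb2, IIIb3 and IIIb4 had 6.61, 10.3, 7.68, 8.42 and 9.78 CPM. Every smoke mouse lay below every air mouse, although IVb2 and IIIa5 were close. The means were 4.06 ± 1.70 CPM in smoke and 8.56 ± 1.51 CPM in air (SD, n = 5 each), a log2 change of -1.16 ± 0.33 (SE) with an adjusted p of 0.0144 in limma's test over all genes. An exact 2-sided permutation test over the mice gave p = 0.00794, the smallest that 5 mice against 5 allow. Ccr2 was the 1 of the 6 genes called in this comparison, beside 15.5% of all genes, so the count is near the share over the whole table. Groups that did not overlap were found for 1 of the 6 and for 9.88% of all genes.

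The call of Ccr2 held in 9 of 10 fits that left out 1 mouse each and in 9 of 11 other alternatives. Without the 3 miR-155 KO air mice that had the most genes at 0 reads, which leaves 2 air mice, the value was -1.12 with an adjusted p of 0.112. Without IVa5, the lowest smoke mouse and the one with 1224 genes at 0 reads, the log2 change was -0.92 with an adjusted p of 0.0517.

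In WT mice Ccr2 measured 7.03, 6.13, 14.4, 7.07 and 5.99 CPM in the smoke mice IIa1, IIa5, IIb1, IIb2 and IIb3. The WT air mice Ia3, Ia4, Ib1, Ib2 and Ib4 had 10.1, 6.10, 14.8, 11.9 and 8.08 CPM. The groups overlapped widely, and IIb1 stood apart from the other smoke mice. The means were 8.12 ± 3.54 CPM in smoke and 10.2 ± 3.36 CPM in air (SD, n = 5 each), and the log2 change of -0.35 ± 0.33 (SE) had an adjusted p of 0.512 in limma. The smoke response did not differ detectably between the genotypes, at -0.81 ± 0.46 (log2, SE) and an adjusted p of 0.593.

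Set against WT smoke, miR-155 KO smoke was lower in Ccr2 by a log2 difference of -1.01 ± 0.33 (SE), which missed the threshold over all genes in limma (adjusted p = 0.122). The exact permutation test of this single gene gave p = 0.0238. The highest miR-155 KO smoke mouse, at 6.42 CPM, lay above 2 of the 5 WT smoke mice. This comparison uses the same smoke mice as the smoke responses, so its value is not independent of them.

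Ccr2 lies on the plus strand of chromosome 9, where GENCODE has it at chr9:124101950-124113557 (GRCm38). Over the 20 libraries, genes whose log2 CPM followed Ccr2 closely were Pdcd11 (r = 0.82) and Pgap2 (r = 0.81), among the 10401 genes whose log2 CPM averaged 1 or more. After the group means were subtracted, r was 0.80 for Pdcd11 and 0.76 for Pgap2. These are descriptions over libraries that share groups.

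Ligands of CCR2 and CX3CR1 were read in the same libraries, with 4 of the 6 genes of that list in the table. Ccl2 had 16, 25, 8, 3 and 12 reads in the miR-155 KO smoke mice, against 4, 0, 0, 0 and 0 in the miR-155 KO air mice. In WT it had 108, 21, 213, 55 and 101 reads in the smoke mice, against 0, 0, 0, 0 and 1 in the air mice. Ccl2 rose with smoke in both genotypes, by 3.79 ± 0.80 in miR-155 KO (log2, SE, limma adjusted p = 0.00109) and by 6.85 ± 0.80 in WT (adjusted p = 1.86e-07). The miR-155 KO call was lost with voom weights, which model the precision of each count (adjusted p = 0.0839), and on the scale of log2 of CPM plus 5 (0.34, adjusted p = 0.280), and held in the other 8 of 10 alternatives. Pooled over the mice of a group, the ratio of smoke to air was 15.9 in miR-155 KO (95% interval 5.92 to 60.1) and 461 in WT (82.4 to 18257, 498 reads against 1), with intervals that cover counting error only.

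Ccl7, the other main CCR2 ligand, had 36 reads in miR-155 KO smoke and 0 in miR-155 KO air, and 273 reads in WT smoke and 0 in WT air. Its level was at least 84.3-fold higher with smoke in WT, counted against 3 reads over the air group, and limma called it (adjusted p = 2.43e-05). In miR-155 KO the level was at least 11.9-fold higher with smoke but was not called (adjusted p = 0.0657), and 2 of the 5 smoke mice had no read. Between the smoke groups, miR-155 KO against WT, the log2 difference was -2.73 ± 0.80 for Ccl2 (adjusted p = 0.0802) and -3.49 ± 0.98 for Ccl7 (adjusted p = 0.0651), neither of which passed. Among 11 other settings Ccl2 was called in 6 and Ccl7 in 4, and without IIb1 and IIb3 the adjusted p was 0.586 for Ccl2 and 0.477 for Ccl7. The fit without these 2 mice called 58 genes in all, against 209 with every mouse.

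Cx3cl1, the ligand of CX3CR1, averaged 42.9 ± 6.22 CPM in miR-155 KO smoke and 64.0 ± 15.1 CPM in miR-155 KO air (SD, n = 5 each). In WT it averaged 41.1 ± 5.93 CPM in smoke and 64.4 ± 3.56 CPM in air (SD, n = 5 each). It fell with smoke in both genotypes, by a log2 change of -0.56 ± 0.13 in miR-155 KO (limma adjusted p = 0.00314) and of -0.66 ± 0.13 in WT (adjusted p = 0.000386). Ccl12 was not called in any comparison.

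**Figure D3:**
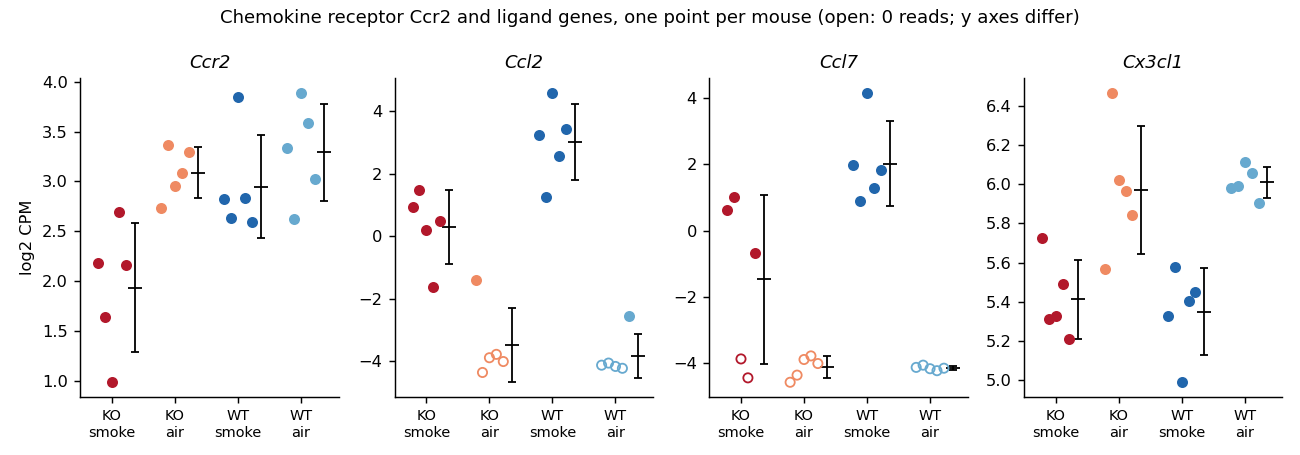
log2 CPM of Ccr2 and the ligand genes Ccl2, Ccl7 and Cx3cl1, one point per mouse, in miR-155 KO smoke, miR-155 KO air, WT smoke and WT air. Open points are 0 reads, the black marks give the mean ± SD over 5 mice, and each panel has its own axis. Ccr2 is lowest in miR-155 KO smoke, Ccl2 is higher with smoke in both genotypes, and Cx3cl1 is lower with smoke in both.

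Cx3cr1, the receptor of CX3CL1, was not called in any comparison. It had 5, 3, 6, 5 and 2 reads in the miR-155 KO smoke mice and 5, 16, 7, 9 and 0 in the miR-155 KO air mice. In WT the smoke mice had 15, 8, 12, 3 and 6 reads and the air mice 4, 6, 6, 10 and 0. All 4 groups overlapped, and the 1 air mouse of each genotype without a read (IIIb4 and Ib4) set the low end. The log2 change with smoke was -0.21 ± 0.88 in miR-155 KO (SE, limma adjusted p = 0.914) and 0.94 ± 0.88 in WT (adjusted p = 0.505). These standard errors leave changes of about the size of the Ccr2 change undetected at this depth.

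Ly6c2 encodes a Ly6C antigen, the surface marker that separates classical from patrolling monocytes in mice. It had 1, 2, 0, 0 and 0 reads in the miR-155 KO smoke mice, against 0, 0, 0, 0 and 14 in the miR-155 KO air mice. The WT smoke mice had 0, 0, 7, 4 and 12 reads, against none in the 5 WT air mice. Reads were thus confined to 6 mice, and 1 air mouse, IIIb4, held more than any other. Pooled over mice, the level in WT smoke was at least 7.10-fold that in WT air, counted against 3 reads over the air group. The limma change in WT was 2.24 ± 1.17 (log2, SE) and was not called (adjusted p = 0.186). In miR-155 KO it was -0.22 ± 1.17 (adjusted p = 0.935). The Ly6c2 transcript is 97.6% identical to that of Ly6c1 over 822 bases, so its reads may have been divided between these neighbours on chromosome 15 and its values are uncertain. Ly6c1 was not analysed here.

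F13a1, which lies on chromosome 13 at chr13:36867178-37050244 on the minus strand (GENCODE, GRCm38), rose with smoke in WT. It had 20, 1, 15, 1 and 20 reads in the WT smoke mice and 0, 1, 0, 0 and 1 in the WT air mice. Only IIa1, IIb1 and IIb3 were high, while IIa5 and IIb2 had 1 read each, as had 2 of the air mice. In miR-155 KO the smoke mice had 0, 3, 0, 0 and 0 reads and the air mice 1, 0, 0, 0 and 0. Means were 1.16 ± 0.975 CPM in WT smoke and 0.0464 ± 0.0636 CPM in WT air (SD, n = 5 each). The limma log2 change in WT was 3.03 ± 1.01 (SE, adjusted p = 0.0298), the exact permutation p was 0.0476, and the ratio of pooled reads was 26.4 (95% interval 6.98 to 223, 57 reads against 2). The change was called without 4 of the 10 mice in turn and not without the other 6, where its adjusted p reached 0.0889 (without IIb3).

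In miR-155 KO the smoke change of F13a1 was 0.22 ± 1.01 (log2, SE, limma adjusted p = 0.925). Between the smoke groups, 3 reads over the miR-155 KO mice against 57 over the WT mice gave a pooled ratio of 0.0562 (95% interval 0.0113 to 0.173). The limma difference of -3.11 ± 1.01 was not called (adjusted p = 0.126), with an exact permutation p of 0.0238. The difference of the smoke responses was -2.81 ± 1.43 (adjusted p = 0.534).

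Tmem176a rose with smoke in WT and was the marker whose WT groups did not overlap. It had 10, 8, 13, 8 and 8 reads in the WT smoke mice, against 2, 1, 0, 0 and 0 in the WT air mice. In miR-155 KO only IVa2 had reads, with 9, while the other 4 smoke mice and all 5 air mice had none. The mean was 0.989 ± 0.265 CPM in WT smoke and 0.0696 ± 0.103 CPM in WT air (SD, n = 5 each). The limma log2 change was 3.40 ± 0.96 (SE, adjusted p = 0.0103), the exact permutation p was 0.00794, and the ratio of pooled reads was 14.5 (95% interval 4.67 to 72.9, 47 reads against 3). It stayed called without each of the 10 mice in turn. Among the 6 genes, Tmem176a and F13a1 were called in WT, 2 of 6 beside 22.4% of all genes in either direction and 9.66% called higher. Groups that did not overlap were found for 1 of the 6, beside 18.1% of all genes. F13a1 had 57 of its 63 reads in WT smoke, and Tmem176a had 47 of its 59. The low-count filter is not known, so both may be in the table through that group, with little room to fall with smoke. For this reason, and with 6 genes, these shares are given as a description.

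In miR-155 KO the smoke change of Tmem176a was 0.82 ± 0.96 (log2, SE, limma adjusted p = 0.633), and it came from IVa2. Between the smoke groups the difference was -3.33 ± 0.96 and was not called (adjusted p = 0.0757). The 9 reads of IVa2 lay within the range of the WT smoke mice, so the groups overlapped. A fit without a variance trend called it lower in miR-155 KO smoke (adjusted p = 0.0290), as did one with voom weights (adjusted p = 0.0389).

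Tmem176b had 11, 12, 3, 0 and 3 reads in the miR-155 KO smoke mice and 1, 0, 15, 0 and 0 in the miR-155 KO air mice. The WT smoke mice had 6, 11, 27, 4 and 25 reads and the WT air mice 1, 0, 9, 7 and 0. Reads were most numerous in WT smoke, above all in IIb1 and IIb3, but the groups overlapped. The log2 change with smoke was 1.62 ± 1.12 in miR-155 KO (SE, limma adjusted p = 0.367) and 2.52 ± 1.12 in WT (adjusted p = 0.110), neither called. The pair was read together in 7 of the 8 libraries with Tmem176a reads, and Tmem176b alone in 7 more. Among pooled reads of WT mice, the ratio of smoke to air was 3.98 for Tmem176b (95% interval 2.32 to 7.20).

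The gene most like each of the other 5 markers over the 20 libraries was Mrpl41 for Tmem176a (r = 0.88), Clec4n for F13a1 (r = 0.86), Atp5e for Tmem176b (r = 0.81), Ywhae for Cx3cr1 (r = 0.77) and Abcf1 for Ly6c2 (r = 0.74). These markers have 0 reads in some or most libraries, so the values are descriptions of sparse counts. After the group means were subtracted, r was 0.66 for Mrpl41 and 0.62 for Clec4n.

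**Figure D4:**
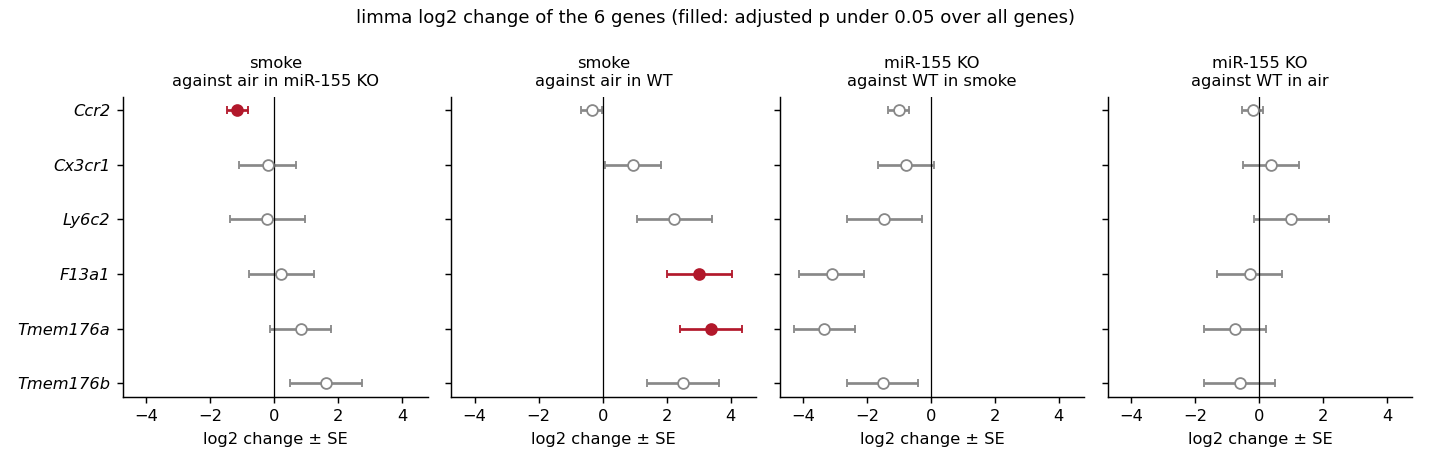
limma log2 change ± SE of the 6 genes for smoke against air in miR-155 KO and in WT, and for miR-155 KO against WT in smoke and in air, all on one scale. Filled red points have an adjusted p under 0.05 over all genes: Ccr2 in miR-155 KO, and F13a1 and Tmem176a in WT.

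Between genotypes none of the 6 genes was called. Over all genes 1.58% were called in smoke, and no marker had groups that did not overlap there (4.24% of all genes). All 6 log2 differences in smoke were negative in miR-155 KO against WT, with a median of -1.49, beside -0.02 over all genes. These signs were not tested, and F13a1 and Tmem176a had most of their reads in WT smoke. In air, 4 of the 6 differences were negative, the adjusted p ranged from 0.796 to 0.938, and 0.416% of all genes were called. No marker had groups that did not overlap in air, beside 1.83% of all genes. For the difference of the smoke responses limma called none of the 13225 genes (0%), although 1302 had an unadjusted p under 0.05, and the fit with voom weights also called 0. All 6 markers had a negative value there, beside a median of 0.02 over all genes, and these signs were not tested either.

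The mice differed in how many markers they held. A read was found for 2 to 5 of the 6 genes in miR-155 KO smoke mice, for 2 to 4 in miR-155 KO air mice, for 5 or 6 in WT smoke mice and for 2 to 4 in WT air mice. Without Ccr2, the other 5 genes summed to 0.459 to 2.98 CPM in miR-155 KO smoke, 0.586 to 2.96 in miR-155 KO air, 2.14 to 8.32 in WT smoke and 0.112 to 1.81 in WT air. IIb1 and IIb3 were the highest of the 20 libraries, at 8.32 and 7.59 CPM.

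Markers of other cell types also differed between the groups. Of 11 genes of T and NK cells, 2 were in the table, Il7r and Cd4. The other 9, among them the CD3 chain genes Cd3e, Cd3d and Cd3g, were not. The summed level of Il7r and Cd4 was 0.642 to 6.08 CPM in miR-155 KO smoke, 0 to 1.26 in miR-155 KO air, 7.47 to 41.2 in WT smoke and 0.571 to 1.71 in WT air. IIb1 and IIb3 had the highest sums, 41.2 and 25.0 CPM. Without these 2 mice no marker was called in WT: the smoke change was 3.26 for Tmem176a (limma adjusted p = 0.0588) and 2.06 for F13a1 (adjusted p = 0.278). With all mice these changes were 3.40 and 3.03. That fit drops 2 of the 5 WT smoke mice, and calls over all genes fell from 2968 to 1987. The same 2 mice were highest in the markers, so the lost calls cannot be tied to the T and NK cell genes. Of 10 dendritic cell genes, 7 were in the table and Xcr1, Cd209a and Siglech were not. Their sum was 198 to 228 CPM in miR-155 KO smoke, 124 to 172 in miR-155 KO air, 219 to 368 in WT smoke and 142 to 171 in WT air. Most of that sum was Cd24a, a surface protein of many cell types, which averaged 185 ± 12.5 CPM in miR-155 KO smoke, 125 ± 20.3 in miR-155 KO air, 245 ± 53.1 in WT smoke and 137 ± 9.43 in WT air (SD, n = 5 each). Of the 7, Flt3 and Cd24a were called higher with smoke in miR-155 KO and Ccr7 and Cd24a in WT. Batf3, a transcription factor of dendritic cells, averaged 3.02 CPM in miR-155 KO smoke and 5.67 in miR-155 KO air, and 3.45 in WT smoke and 4.75 in WT air, and was not called.

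Of 12 neutrophil genes, 5 were in the table, and Ly6g, Elane and Retnlg were not. Their sum was 139 to 314 CPM in miR-155 KO smoke and 86.1 to 134 in miR-155 KO air, and 159 to 357 in WT smoke and 90.3 to 129 in WT air, so that smoke and air did not overlap in either genotype. Mmp8, a collagenase gene, made up most of the sum in the smoke groups, at 158 CPM in miR-155 KO smoke and 188 in WT smoke, against 29.0 in miR-155 KO air and 35.5 in WT air. Csf3r, the receptor of granulocyte colony-stimulating factor, fell instead, with log2 changes of -1.59 in miR-155 KO (limma adjusted p = 5.22e-10) and -1.69 in WT (adjusted p = 9.97e-11). Of 7 genes listed for eosinophils, Ear6 and Siglece were in the table, and Epx and Prg2 were not. Ear6 rose with smoke by 3.24 in miR-155 KO and 2.87 in WT, while Siglece changed by -1.30 in miR-155 KO and -1.09 in WT, all called. The sum of the pair was 119 to 161 CPM in miR-155 KO smoke and 71.2 to 123 in miR-155 KO air, and 126 to 193 in WT smoke and 72.0 to 82.2 in WT air. Siglece made up most of it in air, at 78.6 CPM in miR-155 KO and 59.6 in WT, so the sum is not a level of eosinophils. The smoke and air ranges of this pair overlapped in miR-155 KO. Of the 5 neutrophil genes, 3 were called higher with smoke and 1, Csf3r, lower in each genotype. All genes called higher and lower were 7.05% and 8.45% in miR-155 KO, and 9.66% and 12.8% in WT. Those called higher were S100a8, Cxcr2 and Mmp8 in miR-155 KO, and S100a9, Cxcr2 and Mmp8 in WT. S100a9 had 81 reads in WT smoke and 0 in WT air. In the eosinophil list Ear6 rose while Siglece fell. The part of these cell types in the marker changes was not tested.

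More of the further monocyte genes fell than rose with smoke. Of 22 listed, 17 were in the table. In miR-155 KO, 2 were called higher (Spn and Itgam) and 6 lower, beside 7.05% and 8.45% of all genes. In WT, 1 was called higher (Spn) and 8 lower, beside 9.66% and 12.8% of all genes. Cd14, the lipopolysaccharide co-receptor, fell by 0.66 ± 0.10 in miR-155 KO (log2, SE, limma adjusted p = 1.73e-05) and by 0.67 ± 0.10 in WT (adjusted p = 9.03e-06). Spn, which encodes CD43, rose by 0.48 ± 0.08 in miR-155 KO (adjusted p = 9.62e-05) and by 0.38 ± 0.08 in WT (adjusted p = 0.000865). Alveolar macrophages express several genes of this list too: Cd14 averaged 62.1 to 98.4 CPM over the groups and Spn 85.9 to 120. The median log2 change of the list was -0.24 in miR-155 KO and -0.34 in WT, beside -0.01 and -0.02 over all genes. Plac8, Ms4a4c and Ifitm6, which mark classical monocytes, were not in the table.

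Further interstitial macrophage genes were called higher more often than lower. Of 26 listed, 21 were in the table. In miR-155 KO, 6 were called higher and 3 lower, beside 7.05% and 8.45% of all genes. In WT, 9 were called higher and 2 lower, beside 9.66% and 12.8% of all genes. The median log2 change of the list was 1.64 in miR-155 KO and 1.69 in WT, beside -0.01 and -0.02 over all genes. Some of these genes had little or no room to fall: in WT air C1qa had 0 reads and C3ar1 had 9, against 910 in WT smoke. The low-count filter is not known, so such genes may be in the table only through their smoke reads. The counts and medians are therefore a description. C1qa, a chain of complement C1q, had 86 reads in miR-155 KO smoke and 17 in miR-155 KO air, and 835 in WT smoke and 0 in WT air. It was called in WT (limma adjusted p = 1.24e-06). Trem2, a lipid receptor of macrophages, rose by 1.64 ± 0.14 in miR-155 KO (log2, SE, adjusted p = 7.03e-10) and by 1.69 ± 0.14 in WT (adjusted p = 2.41e-10). Mmp12, the macrophage elastase, rose by 2.91 ± 0.38 in miR-155 KO (adjusted p = 2.21e-06) and by 4.50 ± 0.38 in WT (adjusted p = 6.15e-10). Among those called lower in miR-155 KO, Apoe, the apolipoprotein E gene, changed by -1.42 ± 0.24 (log2, SE, limma adjusted p = 0.000106). Pmepa1 changed by -0.95 ± 0.17 there (limma adjusted p = 0.000244), and neither gene was called with smoke in WT. Alveolar macrophages express several genes of this list too. Mertk averaged 662 CPM in miR-155 KO air and 630 in WT air, and Trem2 averaged 15.4 and 18.4. A change of the list is therefore not a level of interstitial macrophages. Lyve1, Folr2 and Cd163, which mark a perivascular subset, were not in the table.

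Between the smoke groups, 2 genes of the interstitial list were called of 21, both lower in miR-155 KO, beside 1.58% of all genes in either direction. Mmp12 differed by -1.81 ± 0.38 (log2, SE, limma adjusted p = 0.00923) and Apoe by -1.19 ± 0.24 (adjusted p = 0.00754). Both lost the call without IIb1 and IIb3, where calls over all genes fell from 209 to 58. The count of list genes called lower ran from 0 to 6 over the alternatives. The median of the 21 genes was -0.68, beside -0.02 over all genes, and no gene of the monocyte list was called. In air, no gene of either list was called between genotypes.

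**Figure D5:**
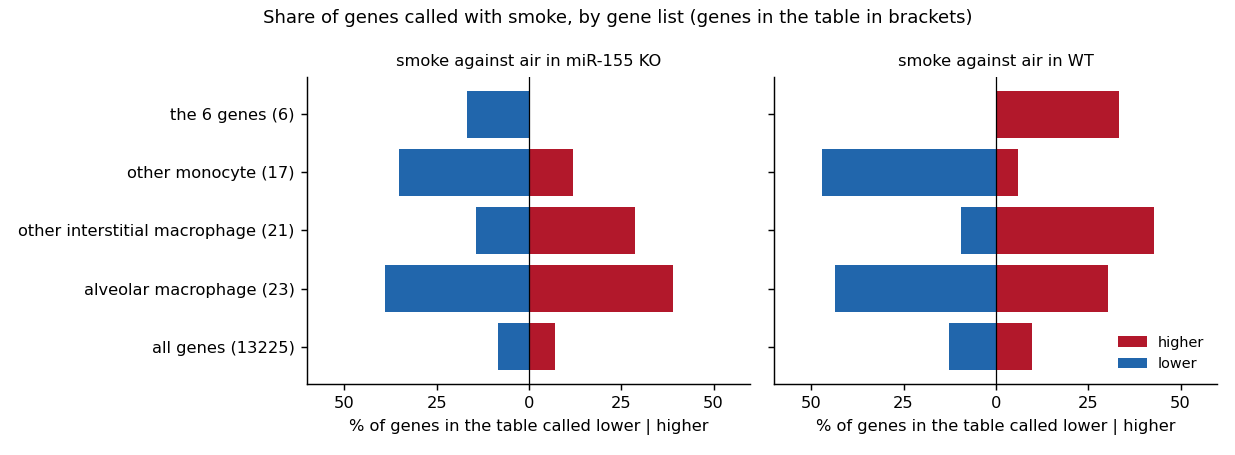
Share of the genes of each list that were called lower (left, blue) or higher (right, red) with smoke, in percent of the genes in the table, for miR-155 KO and WT, beside all 13225 genes. In both genotypes the other monocyte genes were called lower more often than higher, and the other interstitial macrophage genes were called higher more often than lower. Alveolar macrophages express genes of both lists, and genes with almost no reads in air had no room to be called lower.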

How the data were processed

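Poly-A RNA of sorted alveolar macrophages was sequenced, with 25 ng of RNA from a miRNeasy kit entering a TruSeq mRNA preparation, per the labels' protocols. The submitters' processing notes name STAR 2.6.0c, limma and the build GRCm38.p6, and no sources used here give the counting tool or low-count filter. The authors deposited log2 CPM. With the voom formula (0.5 reads added, library total plus 1), 100% of values gave whole reads within 0.001, so reads and CPM were recovered.

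limma 3.58.1 in R 4.3.3 was fitted to all 13225 genes and 20 libraries, with a mean per group and a variance trend. P values were 2-sided, adjusted by Benjamini-Hochberg over all genes, and called under 0.05. Nothing pairs the mice. P values measure the spread between mice. Exact permutation tests, 252 arrangements, covered single genes. Ratios of pooled reads carry exact 95% intervals. Where a group had 0 reads, a bound was computed against 3 reads over the group. The markers, lists and tests were chosen with earlier results of these data known. From each list up to 4 called genes with the smallest p were named, and for each marker the 1 or 2 genes most correlated with it, of the 3 the rule names; some results are not reported here. Itgam, Batf3, Mertk, the levels of C1qa, C3ar1 and Trem2, and the genes named as not in the table were chosen after values were seen. The fit was tested on simulated data. Changes were set there only in genes with more reads than any marker but Ccr2, so that test does not cover the other markers. Python 3.11.15 did the rest.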

Additional observations from a re-analysis of the deposited data

Results flagged for a closer look

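Of 24 groups of 5 mice looked at (6 genes in 4 groups), 7 held 1 mouse that stood apart from the other 4 by more than 0.71 of the range of the group on the log2 CPM scale. Chance gives about 1 in 20 groups, and groups in which most mice have 0 reads are compressed on that scale. Ly6c2 stood at 0.84 in miR-155 KO air mouse IIIb4, the only mouse of its group with a read. Cx3cr1 stood at -4.15 in WT air mouse Ib4, which had 0 reads. Tmem176a stood at 0.12 in miR-155 KO smoke mouse IVa2, the only one of its group with a read, and at 0.60 in WT smoke mouse IIb1. Tmem176b stood at 1.06 in miR-155 KO air mouse IIIb2. F13a1 stood at -1.38, from 3 reads, in miR-155 KO smoke mouse IVa4. Ccr2 stood at 3.85 in WT smoke mouse IIb1, which was also highest in WT smoke for Tmem176a and Tmem176b.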

How the results depend on the processing

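In miR-155 KO, no marker was called with smoke in a fit of the compared groups only, where the adjusted p of Ccr2 was 0.0564, or without IIIb2, IIIb3 and IIIb4. Leaving out 1 mouse in turn gave 0 to 1 called. In WT the count was 0 without IIb1 and IIb3, an alternative chosen after seeing the data, and 1 to 2 without 1 mouse in turn. In smoke, miR-155 KO against WT, 1 marker was called without a variance trend and with voom weights, and 0 to 1 without 1 mouse. For smoke in miR-155 KO, the sign turned for F13a1 under quantile normalization (-0.47), and for Ly6c2 with the mouse code letter as covariate (0.17) and without those 3 air mice (1.10). Without 1 mouse in turn, these uncalled changes ran from -0.60 to 0.78 for Ly6c2, -1.02 to 0.16 for Cx3cr1, -0.0373 to 1.11 for Tmem176a and -0.34 to 0.43 for F13a1. For miR-155 KO against WT in air, the sign turned for Tmem176b with log2 of CPM plus 5 (0.00349) and quantile normalization (0.0267), which also turned Tmem176a (0.20) and F13a1 (0.42), and for Ly6c2 without the 3 air mice (-0.32). Without 1 mouse, Ly6c2 ran from -0.00505 to 1.35 and Cx3cr1 from -0.39 to 1.17 there, and the Tmem176b difference of smoke responses from -1.47 to 0.0733. The cause of these shifts was not tested. A minimum mean log2 CPM of 1 left Ccr2 alone of the 6 genes testable, and a minimum of 3 left none, so no count is given. Count models (edgeR with and without TMM, and DESeq2) were planned and not run. The fit with voom weights on the recovered reads served in their place. No paired analysis was possible because each mouse code occurs once. Depth limits 5 of the 6 genes, which had 40 to 135 reads over all libraries.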
